A study of Homo sapiens with 8 samples.

Results

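The transforming growth factor beta (TGF-beta) genes described here are 10 genes chosen by symbol: the ligands TGFB1, TGFB2 and TGFB3, the receptors TGFBR1, TGFBR2 and TGFBR3, the latent TGF-beta binding proteins LTBP1, LTBP3 and LTBP4, and TGFBI, a secreted matrix protein first found as a TGF-beta induced gene. All 10 were measured in both experiments of the series, among 19472 genes listed for the crowding experiment and 19551 for the knockdown experiment. The cells were H9, an established human embryonic stem cell (hESC) line kept undifferentiated on Matrigel, and every group came from this 1 line. In the crowding experiment, 2 libraries labelled small (the low-density arm of the design) were set against 2 libraries labelled crowded, in which cells were confined to small adhesive areas. In the knockdown experiment, 2 libraries labelled Ctrl were set against 2 libraries labelled ETV4 KD, in which the ETS-family transcription factor ETV4 was depleted with a short hairpin RNA; which hairpin the libraries carried was not given in the sources used here. The 2 experiments have their own controls and their own tables, so levels from them are given side by side and not compared. Nothing in the labels says that the 2 libraries of a group came from separate cultures, so p-values measure the spread between these libraries, which may be technical.

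TGF-beta ligands are made as precursors whose propeptide, after cleavage, stays bound to the mature dimer and keeps it latent. LTBPs can bind this complex covalently, though not all of them equally well. Once bound they anchor it to fibrillin and fibronectin in the matrix, from which integrins, proteases and thrombospondin can release it. The free ligand binds TGFBR2, a kinase that recruits and phosphorylates TGFBR1, which in turn phosphorylates SMAD2 and SMAD3, while TGFBR3 (betaglycan) is a co-receptor that presents the ligand and is needed most for TGFB2. In hESCs, the same SMAD2/3 branch, driven by TGF-beta, activin or NODAL, is known to sustain pluripotency, and the usual defined media supply a ligand of this branch.

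The depth was 50359703 to 62410168 counts on genes per library. ETV4 itself checked the knockdown: it stood at 90.8 and 95.1 FPKM (fragments mapped, scaled to transcript length and library depth) in Ctrl and at 45.6 and 40.9 FPKM in ETV4 KD (log2 fold change -1.15, edgeR adjusted p = 0.000160). After crowding ETV4 went from 73.2 and 72.6 FPKM to 54.2 and 53.9 FPKM (log2 fold change -0.49, adjusted p = 9.42e-07), which is just short of the fold threshold used below. All 8 pluripotency markers (POU5F1, SOX2, NANOG, LIN28A, DPPA4, TDGF1, PODXL and DNMT3B) were at 16.6 FPKM or above in every library, with a summed level of 3332 to 3461 FPKM in small, 3445 to 3568 in crowded, 2856 to 3019 in Ctrl and 3001 to 3041 in ETV4 KD. None of the 8 was called after crowding, while after ETV4 KD TDGF1 and DNMT3B were lower (log2 fold changes -0.82 and -0.82) and LIN28A was higher (0.51). Markers of other cell types were low apart from THY1 and OTX2, which hESCs also express. The mesenchyme list summed to 81.8 to 84.1 FPKM in small and 54.7 to 55.2 in crowded (3 of 4 tested genes lower), and to 121 to 122 in Ctrl and 67.4 to 73.1 in ETV4 KD (2 of 5 lower), nearly all of it THY1, and the defining genes LUM and DCN were in neither table. The neuroectoderm list summed to 10.9 to 11.4 FPKM in small and 13.6 to 18.3 in crowded. In the knockdown experiment it summed to 2.84 to 3.20 in Ctrl and 16.2 to 19.6 in ETV4 KD. Nearly all of the sum was OTX2 in both experiments, with means of 2.66 FPKM in Ctrl and 17.6 in ETV4 KD. Of 4 genes of this list tested in the knockdown, 1 was called higher and 0 lower. After crowding SOX1 was higher by 2.27, but at means of only 0.00951 FPKM in small and 0.0601 in crowded. LHX2 was lower at -1.55, with means of 0.113 and 0.0401 FPKM. OTX2 was not called after crowding (edgeR adjusted p = 0.0551) and was the gene called higher after ETV4 KD. Mesendoderm markers summed to at most 1.22 FPKM and trophectoderm and amnion markers to at most 3.32 FPKM in any library. Of 3 mesendoderm markers tested after crowding, 1 was called. This was FOXA2, lower at -2.85, with means of 0.231 FPKM in small and 0.0331 in crowded. The part of these marker genes in the results below was not tested, and in bulk RNA fewer cells of a type cannot be told apart from less RNA per cell.

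The windows of 250 bases before the transcription starts of TGFBI, TGFBR3, LTBP4 and TGFB1 are shown because these genes carry the largest changes in the knockdown (TGFBI, TGFBR3) and the calls after crowding (LTBP4, TGFB1). They were copied from RefSeq (GRCh38.p14 starts) and each matched GRCh37, the build of the data, exactly once. TGFBI lies on the plus strand of chromosome 5 (window chr5:135364427-135364676), TGFBR3 on the minus strand of chromosome 1 (chr1:92351709-92351958), TGFB1 on the minus strand of chromosome 19 (chr19:41859828-41860077), and LTBP4 on the plus strand of chromosome 19 with 2 starts (chr19:41098822-41099071 and chr19:41107025-41107274). Capitals mark, on either strand, CCGGAA (1 form of an ETS site), the SMAD-binding letters CAGAC, the AP-1 motif TGANTCA and the GC box GGGCGG. Neighbouring GC boxes may overlap. Other forms of ETS site were not marked or counted.
TGFBI: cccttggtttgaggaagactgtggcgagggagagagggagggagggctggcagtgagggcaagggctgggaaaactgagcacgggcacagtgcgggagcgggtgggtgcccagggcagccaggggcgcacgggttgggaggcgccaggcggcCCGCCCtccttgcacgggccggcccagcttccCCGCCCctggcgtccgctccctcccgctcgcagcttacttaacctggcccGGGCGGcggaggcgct
TGFBR3: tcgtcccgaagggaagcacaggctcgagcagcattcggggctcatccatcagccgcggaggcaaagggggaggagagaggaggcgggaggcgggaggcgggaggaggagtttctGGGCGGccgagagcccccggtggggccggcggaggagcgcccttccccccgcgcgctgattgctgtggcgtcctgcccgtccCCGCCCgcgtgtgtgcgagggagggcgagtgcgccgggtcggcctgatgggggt
LTBP4, start 1: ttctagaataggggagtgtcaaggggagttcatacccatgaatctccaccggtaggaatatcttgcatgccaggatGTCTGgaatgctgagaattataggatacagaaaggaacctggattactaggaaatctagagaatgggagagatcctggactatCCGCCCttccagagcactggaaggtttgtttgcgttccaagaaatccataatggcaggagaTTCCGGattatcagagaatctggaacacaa
LTBP4, start 2: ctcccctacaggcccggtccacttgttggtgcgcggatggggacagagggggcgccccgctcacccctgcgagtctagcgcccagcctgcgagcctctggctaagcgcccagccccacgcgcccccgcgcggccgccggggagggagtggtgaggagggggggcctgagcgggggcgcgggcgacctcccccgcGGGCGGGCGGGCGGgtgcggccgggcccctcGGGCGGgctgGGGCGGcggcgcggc
TGFB1: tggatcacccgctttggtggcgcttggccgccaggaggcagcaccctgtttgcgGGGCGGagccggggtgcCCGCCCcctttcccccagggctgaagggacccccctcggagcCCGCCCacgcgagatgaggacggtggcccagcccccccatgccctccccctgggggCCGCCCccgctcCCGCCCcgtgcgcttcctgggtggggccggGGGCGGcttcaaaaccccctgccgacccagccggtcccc

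Of the marked motifs, the windows of TGFBI, TGFBR3 and TGFB1 hold GC boxes only (3, 2 and 6), as does the second LTBP4 window (5, some overlapping). The first LTBP4 window holds 1 copy each of the SMAD-binding letters, the GC box and CCGGAA, all 3 as their reverse complements. Over the 23 windows of all 10 genes, CCGGAA was found in 3 (of TGFBR1, LTBP3 and LTBP4), CAGAC in 10, GGGCGG in 12 and TGANTCA in 0. Of all 35116 windows of this length in the RefSeq table, 14.5% hold CCGGAA, 38% CAGAC, 42.6% GGGCGG and 6.57% TGANTCA. A match is a description of letters and no match says only that the letters are not in the window.

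Before any comparison, the family was ordered by level on the FPKM scale, which is per transcript length. In the small libraries TGFBR1 was highest at 9.39 ± 0.118 FPKM (mean ± SD, n = 2 libraries, as for all means below), followed by LTBP1, LTBP4, TGFB1, TGFBI, TGFBR2, LTBP3, TGFBR3, TGFB3 and TGFB2. TGFBI and TGFBR2 overlapped in this order. In the Ctrl libraries TGFBR1 was again highest at 9.36 ± 0.423 FPKM, followed by LTBP4, TGFBR2, LTBP1, TGFBI, TGFB1, LTBP3, TGFBR3, TGFB3 and TGFB2, where TGFBR2 overlapped LTBP1 and LTBP3 overlapped TGFBR3. TGFBR1 exceeded 67.5% of the genes tested below in small and 67.1% in Ctrl, while TGFB2 exceeded 4.66% and 1.88%. TGFB1 was the ligand present: it made up 93.8% to 97.7% of the summed ligand FPKM in the 8 libraries.

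**Figure D1:**
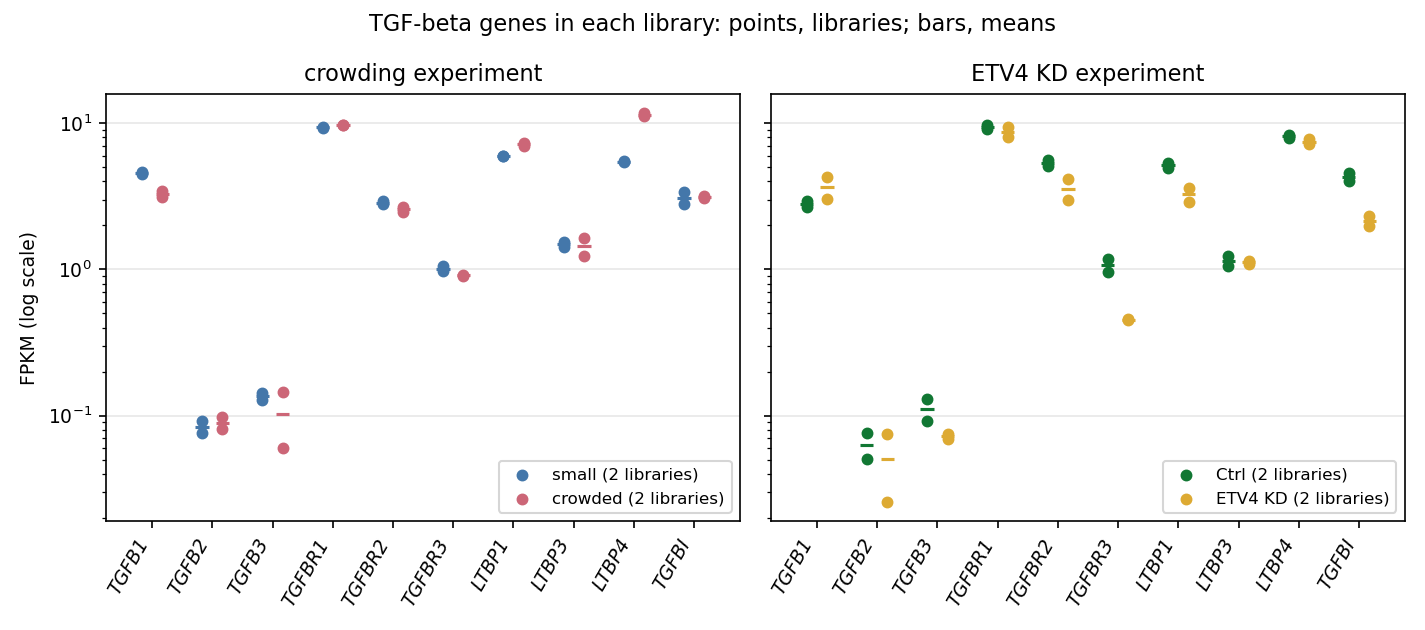
FPKM of each of the 10 genes (log axis) in every library of the crowding experiment (left) and the ETV4 KD experiment (right); points are libraries and bars are group means. The called genes stood apart, LTBP4 and TGFB1 between small and crowded, and TGFBI, TGFBR3, LTBP1 and TGFBR2 between Ctrl and ETV4 KD. The FPKM of some genes not called did not overlap either. TGFB2 and TGFB3 lay below 0.15 FPKM throughout.

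In crowded cells LTBP4 rose and TGFB1 fell, and the other 8 genes were not called. A gene was called where edgeR's quasi-likelihood test gave a Benjamini-Hochberg adjusted p under 0.05 and an absolute log2 fold change over 0.5. By this rule 2 of the 10 genes were called, 1 higher and 1 lower, beside 16.1% of all 17672 genes tested (10.7% higher and 5.47% lower). The median log2 fold change of the 10 genes was -0.07, against 0.00 for all genes, with 3 above 0 and 7 below. In counts per library depth, the 2 groups did not overlap for 5 of the 10 genes, beside 70.7% of all genes tested.

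Of the ligands, TGFB1 (chr19:41807492-41859827, minus strand) stood at 4.61 and 4.48 FPKM in the small libraries and at 3.44 and 3.14 FPKM in the crowded ones. Both crowded libraries were below both small libraries, and the log2 fold change was -0.52 ± 0.10 (SE; 95% interval -0.74 to -0.31, adjusted p = 0.000430). This lies close to the fold threshold: without small replicate 1 the change was -0.50, without crowded replicate 2 it was -0.45, and limma on FPKM gave -0.41, each short of the threshold with adjusted p under 0.05. Exons of TGFB1 overlap those of HNRNPUL1 on the opposite strand, and no source says if the counting used strand; HNRNPUL1 stood at 90.3 ± 0.502 FPKM in small and 87.2 ± 2.39 in crowded (log2 fold change -0.10, adjusted p = 0.118).

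TGFB2 (chr1:218518678-218617961, plus strand) was at 0.0761 and 0.0920 FPKM in small and 0.0810 and 0.0975 in crowded. TGFB3 (chr14:76424440-76449354, minus strand) was at 0.144 and 0.127 FPKM in small and 0.146 and 0.0601 in crowded. The groups overlapped for both ligands, which had mean counts of 34.8 and 27.3 per library, so that the intervals of their log2 fold changes were wide, -0.73 to 0.74 for TGFB2 and -1.30 to 0.47 for TGFB3. Exons of TGFB2 also overlap TGFB2-OT1 on the same strand.

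The receptors were not called after crowding. TGFBR1 (chr9:101866320-101916474, plus strand), the type I kinase, was at 9.47 and 9.31 FPKM in small and 9.78 and 9.71 in crowded. Its FPKM did not overlap between the groups, but the log2 fold change of its counts was -0.00, with an interval of -0.12 to 0.12. Its FPKM and its counts thus differ in what they show. With counts scaled by library totals alone, the TGFBR1 change was 0.0446, beside a median of 0.0498 for all genes tested. TGFBR2 (chr3:30648093-30735634, plus strand), the type II kinase, was at 2.94 and 2.79 FPKM in small and 2.47 and 2.68 in crowded. The crowded libraries were the lower ones, at a log2 fold change of -0.21 (interval -0.41 to -0.01, adjusted p = 0.0870). TGFBR3 (chr1:92145900-92371892, minus strand), the co-receptor, was at 1.05 and 0.972 FPKM in small and 0.904 and 0.918 in crowded, with a log2 fold change of -0.21 (interval -0.49 to 0.07, adjusted p = 0.235).

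The latency proteins split. LTBP4 (chr19:41098789-41135723, plus strand) stood at 5.41 and 5.51 FPKM in the small libraries and at 11.1 and 11.7 FPKM in the crowded ones. Every crowded library was above every small one, and the change was 1.99-fold (log2 fold change 0.99 ± 0.07, interval 0.86 to 1.13, adjusted p = 3.23e-10), the 1345th largest absolute change of the 17672 genes. It ranged from 0.96 to 1.03 with any 1 library left out. LTBP1 (chr2:33172020-33624576, plus strand) was at 5.95 and 5.99 FPKM in small and 6.97 and 7.34 in crowded. Its log2 fold change of 0.21 ± 0.06 had an adjusted p of 0.0125 but fell short of the fold threshold, as did many genes: 39.7% of all genes tested had an adjusted p under 0.05 at any fold (19.4% higher and 20.3% lower). LTBP3 (chr11:65306030-65326401, minus strand) was at 1.55 and 1.41 FPKM in small and 1.24 and 1.65 in crowded, and these groups overlapped (log2 fold change -0.09, interval -0.39 to 0.20). As for TGFB1, overlap in the annotation leaves its counts uncertain.

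The make-up of the LTBP pool therefore differed between the densities. LTBP4 was 41.9% and 42.7% of the summed FPKM of LTBP1, LTBP3 and LTBP4 in the small libraries and 57.5% and 56.5% in the crowded ones, where it passed LTBP1 as the leading LTBP. The summed LTBP level was 12.9 FPKM in both small libraries and 19.3 and 20.7 FPKM in the crowded libraries. Set against the summed ligand FPKM, this gave 2.68 and 2.75 in small and 5.27 and 6.27 in crowded, as values of these libraries without a test. The sum counts each LTBP alike, and how much ligand each of them binds was not measured. TGFBI (chr5:135364677-135399507, plus strand) was at 2.80 and 3.39 FPKM in small and 3.07 and 3.19 in crowded, with overlapping groups and a log2 fold change of -0.04 (interval -0.29 to 0.21, adjusted p = 0.821).

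**Figure D2:**
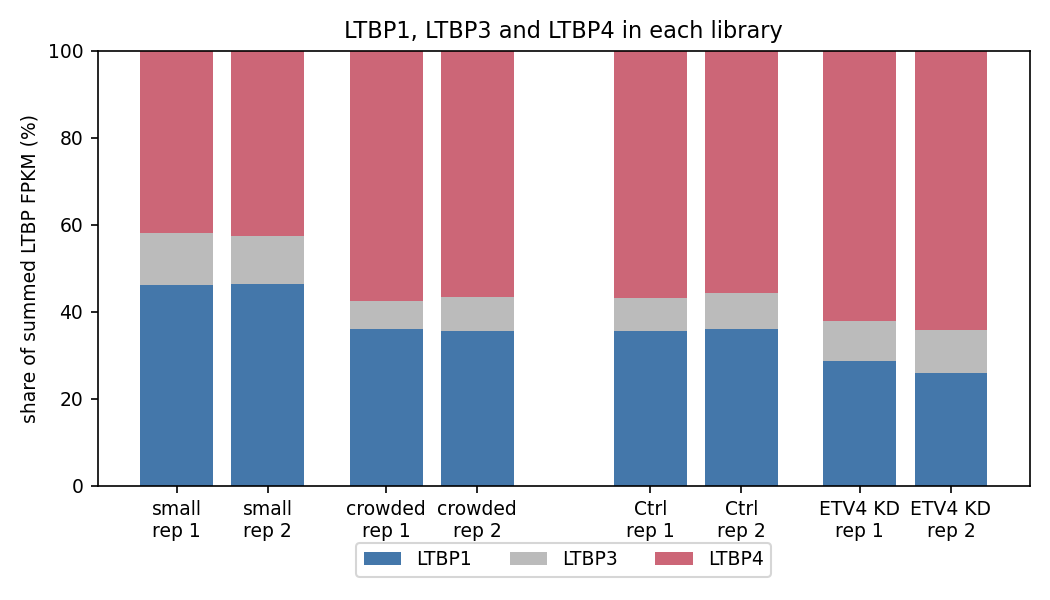
Share (%) of LTBP1, LTBP3 and LTBP4 in their summed FPKM, 1 bar per library. LTBP4 took 41.9% and 42.7% in small and 57.5% and 56.5% in crowded, and 56.9% and 55.8% in Ctrl and 62.2% and 64.3% in ETV4 KD; the 2 experiments were normalized separately.

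After ETV4 KD 4 of the 10 genes fell, the receptors TGFBR2 and TGFBR3, LTBP1 and TGFBI, and 0 rose. Beside these, 13% of all 17879 genes tested were called, 5.88% higher and 7.1% lower. The median log2 fold change of the family was -0.45, against 0.00 for all genes, with 1 gene above 0 and 9 below. In counts per library depth, the groups of 7 of the 10 genes did not overlap, beside 64.8% of all genes tested.

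TGFBI stood at 4.05 and 4.56 FPKM in the Ctrl libraries and at 2.31 and 1.99 FPKM in the ETV4 KD libraries. Both knockdown libraries were below both controls, a 2.00-fold lower level (log2 fold change -0.999 ± 0.14, interval -1.32 to -0.68, edgeR adjusted p = 0.00318). TGFBR3 went from 1.17 and 0.964 FPKM to 0.459 and 0.448 FPKM. This was the largest change of the family, 2.33-fold lower (log2 fold change -1.22 ± 0.18, interval -1.62 to -0.82, adjusted p = 0.00355) and the 668th largest absolute change of 17879 genes. TGFBI and TGFBR3 were called in every fit that left out 1 library.

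LTBP1 was at 4.96 and 5.36 FPKM in Ctrl and at 3.62 and 2.89 FPKM in ETV4 KD. The groups did not overlap, and the log2 fold change was -0.67 ± 0.11 (interval -0.92 to -0.41, adjusted p = 0.00611). TGFBR2 was at 5.60 and 5.12 FPKM in Ctrl and at 4.17 and 2.98 FPKM in ETV4 KD. Its groups did not overlap either, with a log2 fold change of -0.60 ± 0.15 (interval -0.93 to -0.26, adjusted p = 0.0237), but the call rested on single libraries. Without Ctrl replicate 1 it was -0.51 with an adjusted p of 0.0583, and without ETV4 KD replicate 2 it was -0.40, short of the fold threshold.

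TGFB1 was at 2.68 and 2.95 FPKM in Ctrl and at 3.04 and 4.30 FPKM in ETV4 KD. Both knockdown libraries were above the controls, but ETV4 KD replicate 2 stood far above replicate 1, and the log2 fold change of 0.39 ± 0.19 did not pass the test (interval -0.04 to 0.82, adjusted p = 0.170). Left out in turn, these libraries decided the value: it was 0.09 without ETV4 KD replicate 2 and 0.65 without ETV4 KD replicate 1, where it was called (adjusted p = 0.00567). HNRNPUL1, the overlapping gene, was at 77.3 ± 0.954 FPKM in Ctrl and 83.6 ± 1.30 in ETV4 KD (log2 fold change 0.13, adjusted p = 0.226).

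The remaining members were not called in the knockdown. TGFBR1 was at 9.66 and 9.06 FPKM in Ctrl and 9.46 and 8.02 in ETV4 KD, with overlapping groups and an interval of the log2 fold change of -0.31 to 0.12. LTBP4 was at 7.94 and 8.33 FPKM in Ctrl and 7.83 and 7.16 in ETV4 KD (interval -0.31 to 0.08, adjusted p = 0.353). LTBP3 was at 1.05 and 1.24 FPKM in Ctrl and 1.15 and 1.09 in ETV4 KD (interval -0.39 to 0.34). The FPKM groups of LTBP4 did not overlap, while those of LTBP3 did. TGFB2 at 0.0760 and 0.0506 FPKM in Ctrl and 0.0746 and 0.0258 in ETV4 KD, and TGFB3 at 0.0922 and 0.130 in Ctrl and 0.0694 and 0.0748 in ETV4 KD, had mean counts of 21.3 and 19.8 and intervals of -1.49 to 0.89 and -1.58 to 0.35.

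The ratio of the signalling receptors moved with TGFBR2. TGFBR1 was 1.72 and 1.77 times TGFBR2 on the FPKM scale in Ctrl and 2.27 and 2.69 times in ETV4 KD. In the crowding experiment the ratio was 3.22 and 3.33 in small and 3.95 and 3.62 in crowded. The summed LTBP level was 14.0 and 14.9 FPKM in Ctrl and 12.6 and 11.1 FPKM in ETV4 KD. LTBP4 was 56.9% and 55.8% of it in Ctrl and 62.2% and 64.3% in ETV4 KD, since LTBP1 was the member that fell. Set against the summed ligand FPKM, the LTBP sum gave 4.91 and 4.77 in Ctrl and 3.96 and 2.53 in ETV4 KD, also without a test.

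**Figure D3:**
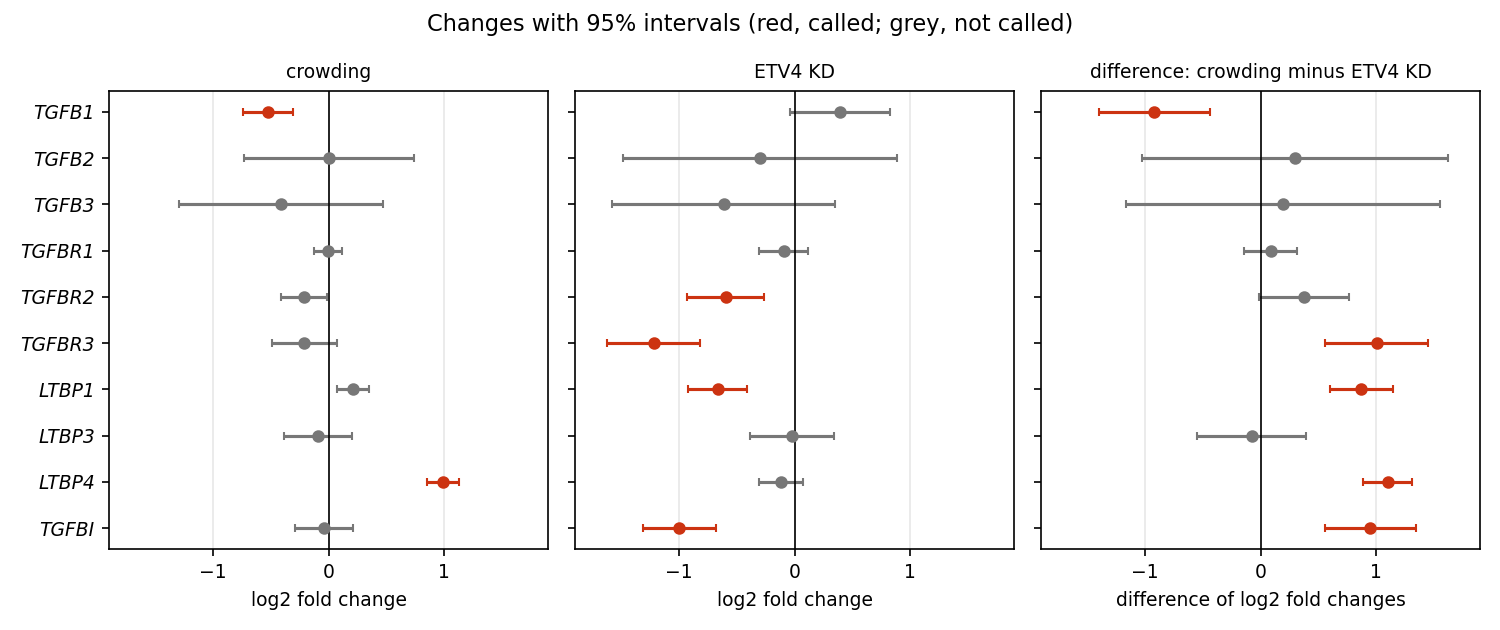
Log2 fold changes of the 10 genes with 95% intervals after crowding (left) and ETV4 KD (middle), and the difference between them (right); red marks calls and grey the rest. LTBP4 rose by 0.99 in the left panel, TGFBI and TGFBR3 fell by 0.999 and 1.22 in the middle panel, and 5 genes differed in the right panel.

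Whether a gene changed differently in the 2 experiments was tested directly, as the change after crowding minus the change after ETV4 KD in 1 fit of all 8 libraries. Of the 10 genes, 5 differed at an adjusted p under 0.05, beside 38.5% of all 17790 genes tested. LTBP4, higher after crowding and not called after knockdown, differed by 1.10 ± 0.10 (adjusted p = 9.81e-06). LTBP1, up by 0.21 after crowding and down by 0.67 after knockdown, differed by 0.87 ± 0.12 (adjusted p = 0.000248). TGFBI differed by 0.95 ± 0.18 (adjusted p = 0.00154) and TGFBR3 by 1.01 ± 0.21 (adjusted p = 0.00243), both lower after knockdown. TGFB1 differed in the other direction, by -0.92 ± 0.22 (adjusted p = 0.00608). For TGFBR2 the difference was 0.38 (interval -0.01 to 0.77, adjusted p = 0.116), and it passed without ETV4 KD replicate 1, at 0.61 (adjusted p = 0.00252).

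The rest of the pathway was followed in lists of 55 other genes, 17 for activation and anchoring, 23 for receptor accessories and SMADs, and 15 for target genes. After crowding 14 of 52 tested genes were called (26.9%), 2 higher and 12 lower, with a median log2 fold change of -0.18, beside 16.1% of all genes tested (10.7% higher and 5.47% lower). Among activation genes 1 of 15 rose and 5 fell. ITGB5, the integrin beta subunit of a receptor that can release latent TGF-beta, stood at 60.3 and 61.4 FPKM in small and 26.0 and 23.8 in crowded (log2 fold change -1.35 ± 0.06). THBS1, thrombospondin, which can activate the latent complex, fell from 6.67 and 6.71 FPKM to 3.18 and 2.81 (-1.22 ± 0.07). PLAU, the urokinase that turns plasminogen into plasmin, fell by 1.04 on the log2 scale. NRROS, a cell-surface protein that holds latent TGF-beta, was the gene that rose, from 1.48 and 1.57 FPKM to 3.01 and 3.16 (0.95 ± 0.14).

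Of 22 receptor accessories and SMADs tested after crowding, 3 fell and 0 rose (13.6%, beside 16.1% of all genes, 10.7% higher and 5.47% lower). The share called in both directions together was not above that of all genes, but every call was lower. At an edgeR adjusted p under 0.05 and any fold, 9 were lower and 2 higher, beside 20.3% and 19.4% of all genes. The 3 called genes act as inhibitors of the pathway. Other inhibitors of the same list were not called, among them SMAD6, SMURF1, SMURF2, SKI, SKIL, TGIF1 and TGIF2. These ran from -0.37 (TGIF1) to 0.32 (TGIF2) in log2 fold change. SMURF1, SMURF2, SKI and SKIL also lay below 0, and SMAD6 above 0. Whether these changes go with more or with less signalling was not tested. SMAD7, which blocks the type I receptor, was at 12.0 and 12.9 FPKM in small and 5.63 and 4.33 in crowded (log2 fold change -1.37 ± 0.10). BAMBI, a pseudoreceptor, fell by 1.04 and PMEPA1, which sequesters SMADs, fell by 0.95. Among 15 target genes 4 fell and 1 rose. TAGLN, an actin-binding protein, went from 54.4 and 57.9 FPKM to 12.1 and 8.68 FPKM (log2 fold change -2.49 ± 0.23). The TAGLN call was lost without small replicate 1 (adjusted p = 0.0599, log2 fold change -2.53). CCN2, a matricellular protein, fell by 1.30 and CDKN1A, the cell cycle inhibitor p21, fell by 0.73. All named genes of this list are also known targets of other pathways.

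After ETV4 KD 14 of 54 tested pathway genes were called (25.9%), 7 higher and 7 lower, with a median of -0.14, beside 13% of all genes tested (5.88% higher and 7.1% lower). Among 16 activation genes 3 fell and 1 rose. NRROS fell from 3.62 and 3.34 FPKM to 1.82 and 1.71 FPKM (log2 fold change -0.97 ± 0.15), while THBS1 rose from 4.15 and 3.71 FPKM to 6.14 and 7.34 FPKM (0.78 ± 0.12). FBN2, a fibrillin of the microfibrils that LTBPs bind, fell by 0.78. MMP9, a matrix metalloproteinase, fell by 0.60 with an adjusted p of 0.0404, which left the threshold without any 1 of the 4 libraries (adjusted p = 0.0501 to 0.202), at log2 fold changes of -0.62 to -0.57.

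Of 23 receptor accessories and SMADs 3 fell and 1 rose after ETV4 KD (17.4%, near the 13% of all genes). TGIF1 and TGIF2 are related homeodomain co-repressors of SMAD2/3, and TGIF1 went from 82.5 and 91.8 FPKM to 127 and 128 FPKM (log2 fold change 0.54 ± 0.08), but to 0.48 without Ctrl replicate 1. TGIF2 went the other way, from 19.7 and 19.2 FPKM to 13.0 and 9.95 FPKM (-0.76 ± 0.11). Among 15 target genes 5 rose and 1 fell, beside 5.88% of all genes higher and 7.1% lower. The list median was 0.54, against -0.00125 for all genes, with 9 genes above 0 and 6 below. Some of the genes above 0 had low counts and were not called. COL1A1, a chain of type I collagen, rose from 21.5 and 22.4 FPKM to 44.9 and 42.8 FPKM (log2 fold change 1.00 ± 0.07). ACTA2, smooth muscle actin, rose by 1.48 ± 0.24 from 0.563 FPKM on average and JUNB, an AP-1 subunit, by 1.17 ± 0.23. FN1, fibronectin, was the target that fell, from 23.6 and 19.9 FPKM to 10.6 and 7.36 FPKM (-1.29 ± 0.15).

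**Figure D4:**
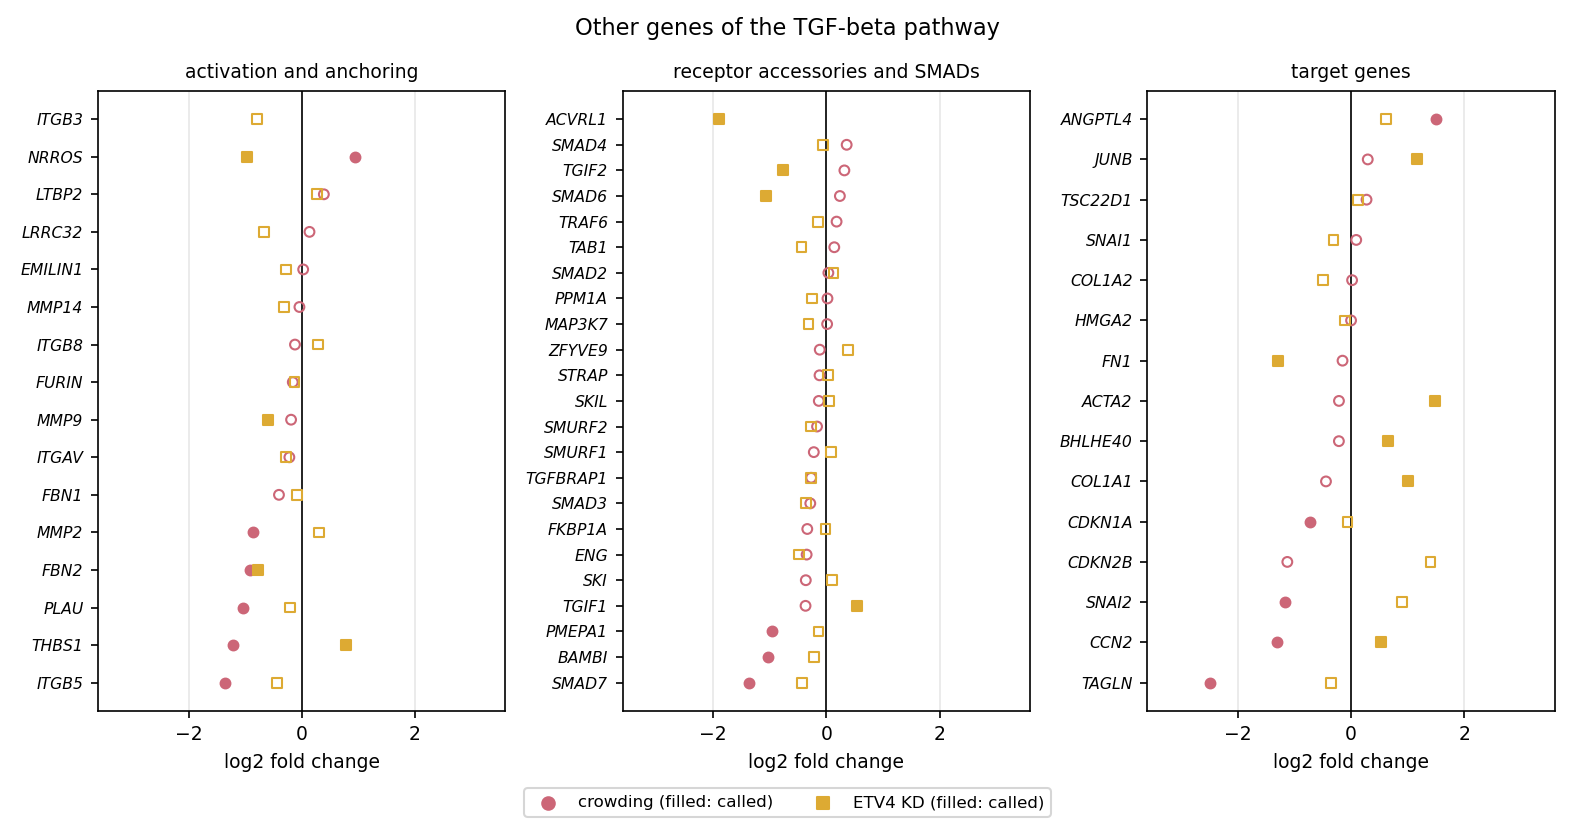
Log2 fold changes of the other TGF-beta pathway genes after crowding (circles) and ETV4 KD (squares), by list; filled marks are called. After crowding 12 of the 14 called genes lie below 0, and after ETV4 KD 7 of 14 do.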

How the data were processed

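Poly-A RNA of H9 hESCs was sequenced as paired reads from a stranded kit in 8 libraries. The submitters' processing notes name Trimmomatic, HISAT2 2.1.0, StringTie 2.1.3b and the build GRCh37 (hg19). The authors deposited for each gene the read count, without normalization, and the FPKM, normalized by transcript length and mapped reads; no source says if the counting used strand. Their fold changes and p-values and 16 further columns of per-sample values were not used. Each experiment was tested within its own table.

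Counts were tested with the quasi-likelihood test of edgeR 4.0.16 (R 4.3.3; filterByExpr with a minimum count of 10, TMM, robust dispersions) and Benjamini-Hochberg adjustment over all genes tested. SEs are the absolute log2 fold change over the square root of F, and levels are deposited FPKM. The difference between experiments was 1 contrast over 8 libraries. The tests were tested on simulated data. With 2 libraries a group, p-values rest on dispersions shared across genes. Among the members, TGFB2 and TGFB3 had the lowest counts and so the largest counting error. Other genes of low count carry it too, such as ACTA2 with 51 and 63 counts in Ctrl.

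The members and gene lists were chosen with earlier results of these data known. Named besides the members, the markers and ETV4 are up to 4 called genes per list and comparison. They have the largest absolute changes and a mean FPKM of at least 1 in either group. HNRNPUL1 was named after its overlap was seen. Some inhibitors not called after crowding were named outside this rule, beside the called ones. Some results are not reported here, and the target list and its counts leave out the gene concerned. Positions come from GENCODE lifted to GRCh37. Alternatives were no filter, a replicate block, scaling by DESeq2 size factors, DESeq2's own test (1.42.0, Wald), limma 3.58.1 on log2(FPKM + 0.5) for a mean FPKM of at least 0.5, an absolute log2 fold change over 1, each library left out and, chosen after seeing the data, library totals without TMM.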

Additional observations from a re-analysis of the deposited data

Results flagged for a closer look

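For 5 of the 10 genes the test of the difference itself, the log2 fold change after crowding minus that after ETV4 KD, passed an adjusted p of 0.05 in edgeR. The differences were -0.92 for TGFB1, 1.01 for TGFBR3, 0.87 for LTBP1, 1.10 for LTBP4 and 0.95 for TGFBI. These 5 also passed with any 1 library left out, with a highest adjusted p of 0.0352 (TGFB1). For comparison, 38.5% of all 17790 genes tested passed.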

How the results depend on the processing

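With 2 libraries a group, precision is limited by the replicates, and for TGFB2 and TGFB3 also by their low counts. The 2 TGF-beta genes called after crowding were 1 with library totals without TMM (TGFB1 at -0.48), 1 with limma on FPKM, 0 at an absolute log2 fold change over 1, and 1 to 2 with a library left out. The 4 called after ETV4 KD were 1 over 1. With a library left out, the median of the whole family, called or not, ranged from -0.66 to -0.24. The 14 other pathway genes called after crowding were 9 over 1, and the 14 after ETV4 KD were 6 over 1, and 13 to 15 and 11 to 16 with a library left out. All genes called after crowding, 2851, were 1717 with limma, 1135 over 1 and 2407 to 3408 with a library left out; after ETV4 KD, 2321 were 761 over 1 and 1587 to 3390.

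Of genes not called, signs after crowding turned for TGFBR1 (0.0446 with library totals, 0.000652 with no filter, 0.0508 with limma) and TGFBI (0.00537 with library totals, 0.0207 with limma). With 1 library left out, values ranged after crowding from -0.12 to 0.15 for TGFB2, -1.14 to 0.10 for TGFB3, -0.0161 to 0.0146 for TGFBR1, -0.29 to 0.0802 for LTBP3 and -0.17 to 0.11 for TGFBI, after ETV4 KD from -1.14 to 0.21 for TGFB2 and -0.11 to 0.0712 for LTBP3, and for the difference from -0.21 to 1.14 for TGFB2, -0.53 to 0.71 for TGFB3 and -0.28 to 0.10 for LTBP3. Where no value above shows the cause, the cause was not tested.

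The labels number the replicates alike, but deviations of libraries with the same number correlated at -0.04 for crowding and 0.09 for ETV4 KD, so the number was not taken as a pairing. With the replicate number as a block, 2 genes of the family were called after crowding, 4 after ETV4 KD and 6 for the difference, where TGFBR2 was added (0.39, adjusted p = 0.0310). After ETV4 KD the edgeR adjusted p became 0.0335 for TGFB1, whose 0.37 stayed short of the fold threshold. It became 1.41e-05 for TGFBR2 and 2.56e-06 for LTBP1. It rose only for TGFB3 (0.341) and LTBP3 (0.937). Pathway genes called were 14 and 15, and all genes called 2874 and 2901. The median of all genes stayed between -0.04 and 0.05 under every scaling.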
